A study of Mus musculus with 45 samples.

Results

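Isl1, Fgf8, Fgf10, Prdm1, Eya1, Cck and Nts, genes linked to the second heart field and the outflow tract, were followed through mouse heart development. They were 7 of the 18193 genes with a single symbol on the array, found by the platform's gene symbols. A gene with several probe sets was read from the brightest of them, by the mean of its values on all 45 arrays. No filter on low values was applied, so all 7 entered every test. They did not share 1 course: Isl1, Fgf10, Prdm1, Eya1 and Cck had their highest group mean in the E8.5 heart tube, Fgf8 had it in embryonic stem cells and Nts had it in day 3 left ventricles.

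Total RNA was measured on 1-colour Affymetrix arrays, 3 in each of 15 groups. The groups were R1 embryonic stem cells (ESC, an established mouse line), whole embryos at E7.5 (embryonic day 7.5), heart tubes at E8.5, and left (LV) and right (RV) ventricles at 6 stages: embryonic days E9.5 and E12.5, then E14.5 and E18.5, then day 3 after birth and adult. All tissue came from wild-type CD1 mice with no treatment, and the labels do not state how old the adults were. The labels call the replicates biological. Each array pooled 30 to 50 embryos or hearts for the stages before E12.5, 10 to 20 for E12.5 and E14.5, and 3 to 5 for E18.5. Day 3 and adult arrays held 1 heart each, frozen and pulverised before extraction, and the stem cells were a single line.

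The second heart field is a pool of progenitors in pharyngeal mesoderm, beside the early heart tube, that adds muscle to the outflow tract and the right ventricle while the left ventricle comes mostly from earlier progenitors. Isl1 is a LIM-homeodomain factor that marks these progenitors and is shut off as they become muscle. Fgf8 and Fgf10 are secreted fibroblast growth factors of the same field, and Fgf10 is made in its anterior portion. Prdm1 encodes the zinc-finger repressor Blimp1, and Eya1 a co-activator and phosphatase that works with sine oculis homeobox factors in the pharyngeal region. Cck and Nts encode the precursors of cholecystokinin and neurotensin, peptide hormones best known from gut and brain.

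Promoters are shown for 4 of the 5 genes that were lower in left than in right ventricles at E9.5, because these genes moved together there. The windows run from 250 bases before to 50 bases after the transcription start, 5′ to 3′ on the gene's strand, from RefSeq on GRCm38.p6. Capitals mark matches to the motifs named after the sequences.
Isl1: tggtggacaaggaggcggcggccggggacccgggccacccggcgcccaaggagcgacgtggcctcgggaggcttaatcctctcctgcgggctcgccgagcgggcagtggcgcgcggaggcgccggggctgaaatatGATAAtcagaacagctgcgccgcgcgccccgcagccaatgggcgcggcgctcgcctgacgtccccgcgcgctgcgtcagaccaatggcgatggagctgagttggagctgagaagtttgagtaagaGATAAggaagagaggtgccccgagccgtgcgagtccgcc
Fgf10: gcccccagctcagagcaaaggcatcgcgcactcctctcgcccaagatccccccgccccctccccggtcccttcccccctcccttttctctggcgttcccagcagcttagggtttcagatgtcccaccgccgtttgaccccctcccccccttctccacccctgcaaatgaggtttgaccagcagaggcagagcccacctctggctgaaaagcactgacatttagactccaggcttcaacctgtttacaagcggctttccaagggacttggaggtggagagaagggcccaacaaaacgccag
Cck: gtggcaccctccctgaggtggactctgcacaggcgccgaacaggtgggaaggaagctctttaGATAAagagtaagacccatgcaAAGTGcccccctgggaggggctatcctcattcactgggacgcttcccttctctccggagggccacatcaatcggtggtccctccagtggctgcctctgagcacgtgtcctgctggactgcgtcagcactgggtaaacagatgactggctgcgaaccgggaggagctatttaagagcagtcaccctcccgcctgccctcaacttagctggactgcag
Nts: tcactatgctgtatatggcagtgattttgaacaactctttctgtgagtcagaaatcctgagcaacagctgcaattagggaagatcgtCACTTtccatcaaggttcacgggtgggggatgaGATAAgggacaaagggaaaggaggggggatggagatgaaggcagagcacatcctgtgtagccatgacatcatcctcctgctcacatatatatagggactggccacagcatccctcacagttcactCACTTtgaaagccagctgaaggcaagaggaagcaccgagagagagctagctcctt
The Isl1 window lies at chr13:116309639-116309938 on the minus strand, the Fgf10 window at chr13:118714449-118714748 on the plus strand, the Cck window at chr9:121495645-121495944 on the minus strand, and the Nts window at chr10:102490369-102490668 on the minus strand. Of the 7 genes, 5 had an entry in the table, and Fgf8 and Eya1 had none.

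Motifs were searched on both strands as the letters GATAA (GATA factors), AAGTG (Nkx2-5), TAATTA (homeodomain factors) and GGTGTG (a T-box site). GATAA was found at -114 and +12 from the start of Isl1, at -188 in Cck and at -130 in Nts. AAGTG was found at -166 in Cck and, on the opposite strand, at -163 and -5 in Nts. The windows of Fgf10 and Prdm1 held none of these letters, and TAATTA and GGTGTG were in none of the 5. Among all 32851 windows of this length, 25.4% held GATAA, 46.4% AAGTG, 5.29% TAATTA and 19% GGTGTG, so single matches of this kind are common. The Isl1 window was 69% G or C with 37 CpG pairs, against medians of 52.7% and 7 over all windows, while the Nts window was 49% G or C with 3 CpG pairs.

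Values below are log2 RMA values (robust multi-array average, the authors' normalized signal on a log2 scale), on which 1 unit is a 2-fold difference and values run from 2.07 to 15.2. No detection calls were used, so a low value cannot be told from absence, and RMA understates changes of dim genes. In bulk tissue, fewer cells of a type and less RNA per cell cannot be told apart. Array medians were 5.35 to 5.47, and the lowest correlation between replicates was 0.987. The mean of 7 ventricular muscle markers was 4.67 to 5.95 in stem cells and E7.5 embryos and 11.9 to 13.01 in all later groups. In all, 4 arrays stood more than 1.5 units above their replicates in the markers of another tissue. Adult RV replicate 3 did so in atrial muscle (3.00 above). E7.5 replicate 2, E9.5 LV replicate 1 and E9.5 RV replicate 1 did so in decidua and trophoblast (1.63, 2.10 and 2.06 above). The latter list had only 3 measured genes, and Prl8a2 stood furthest above the replicates on these arrays (4.77, 5.83 and 5.54). A comparison with replicates cannot show a tissue that all arrays of a group share. The mean of this list was 4.88 to 6.68 in E7.5 embryos and 5.39 to 6.35 in E8.5 heart tubes, against 3.54 to 3.76 in stem cells.

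Isl1 was high in the E7.5 embryo, the E8.5 heart tube and the E9.5 right ventricle, and low in every left ventricle. Its values were 8.2, 7.9 and 7.84 at E7.5 and 8.86, 8.94 and 8.58 at E8.5. At E9.5 they were 5.23, 4.93 and 4.54 in left ventricles, against 8.2, 7.59 and 7.92 in right ventricles. The right ventricle lay nearer to the heart tube, and the left ventricle lay at the level of stem cells (4.97, 5.08 and 4.73). At E12.5 the values were 4.58, 4.85 and 4.33 in left ventricles, against 6.07, 5.74 and 5.96 in right ventricles. From E14.5 on all 24 ventricle arrays lay between 4.20 and 5.29. In the order of the 15 group means, E8.5 stood above E7.5 and E9.5 RV, which overlapped, then E12.5 RV, and below it each group overlapped the next.

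Fgf8 was highest in stem cells and lower but still high in E7.5 embryos and E8.5 heart tubes. It had 10.23, 10.13 and 10.03 in stem cells, 7.57, 7.37 and 8.24 at E7.5, and 8.33, 8.76 and 8.5 at E8.5. The groups did not overlap, with stem cells highest and E8.5 above E7.5. At E9.5 left ventricles had 4.68, 4.80 and 4.67, against 7.50, 6.91 and 7.03 in right ventricles. All 30 arrays from E12.5 to adult lay between 4.28 and 5.02 (mean 4.65 ± 0.18, SD), so left ventricles had reached this floor by E9.5. Only 3 of the 14 pairs of neighbours in the order of group means stood apart.

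Fgf10 was highest in heart tubes and in the right ventricles of E9.5. It had 5.13, 5.13 and 5.04 in stem cells, 5.88, 6.04 and 5.31 at E7.5, and 7.2, 7.05 and 7.39 at E8.5. At E9.5 left ventricles had 4.68, 5.07 and 5.28, against 6.85, 6.97 and 6.96 in right ventricles, so that right ventricles lay just under the heart tube and left ventricles overlapped stem cells. The 30 later arrays lay between 4.18 and 5.12. In the order of means, E8.5, E9.5 RV and E7.5 each stood apart from the next group, and below them all neighbours overlapped.

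Prdm1 fell in both ventricles and came back later. Its values were 7.45, 7.48 and 7.57 in stem cells, 7.83, 7.45 and 7.34 at E7.5, and 8.09, 8.29 and 8.18 at E8.5. At E9.5 left ventricles had 4.80, 4.96 and 4.72, against 5.58, 5.12 and 5.06 in right ventricles. The lowest group was the E12.5 left ventricle, with 4.49, 3.98 and 4.43, against 4.88, 4.60 and 4.48 in right ventricles. At day 3 left ventricles had 5.99, 6.37 and 6.09, against 5.70, 5.67 and 5.86 in right ventricles, all above every E12.5 array and below every E8.5 array. Only 2 of 14 neighbouring groups stood apart, E8.5 above E7.5 and ESC above day 3 LV.

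Eya1 was highest in E7.5 embryos, with 7.68, 6.44 and 7.29, and in E8.5 heart tubes, with 6.81, 7.59 and 7.11, which overlapped. Stem cells had 5.99, 5.85 and 6.42. At E9.5 left ventricles had 5.28, 5.32 and 5.36, against 5.49, 5.24 and 4.93 in right ventricles, so the ventricles overlapped where Isl1, Fgf8 and Fgf10 did not. The 30 later arrays lay between 4.53 and 5.77, and the E12.5 left ventricle (5.66 ± 0.11, SD, n = 3) was the only later group to stand apart from its neighbours in the order of means.

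Cck was high only in heart tubes and in the ventricles of E9.5. It was at 4.14, 3.89 and 4.41 in stem cells and at 4.65, 4.78 and 4.41 in E7.5 embryos. Heart tubes at E8.5 had 10.43, 10.41 and 10.92, above all other arrays of the series. At E9.5 left ventricles had 8.67, 8.88 and 8.81, against 9.92, 9.38 and 9.67 in right ventricles. All 30 arrays from E12.5 on lay between 3.74 and 4.52, below the highest E7.5 array. In the order of means E8.5, E9.5 RV and E9.5 LV each stood apart from the next group, and the other 11 pairs of neighbours overlapped.

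Nts had the opposite course, low in early tissue and high in late ventricles. It had 4.53, 5.07 and 4.78 in stem cells, 3.95, 3.70 and 3.84 at E7.5, and 4.28, 4.35 and 4.40 at E8.5. At E9.5 left ventricles had 4.41, 4.40 and 4.80, against 7.42, 7.51 and 7.75 in right ventricles. Only right ventricles lay clearly above the heart tube at this stage. At E12.5 left ventricles had 6.5, 6.15 and 6.78, against 7.49, 6.99 and 7.69 in right ventricles, and at day 3 left ventricles had 9.22, 9.10 and 9.02, against 9.0, 8.9 and 8.99 in right ventricles. Day 3 was the peak on both sides. In adults left ventricles had 6.33, 6.05 and 7.55, against 6.23, 6.26 and 7.76 in right ventricles, with replicate 3 highest on both sides. Adult RV replicate 3 was also the array with atrial markers, and the part of that in its Nts value was not tested. Adult LV replicate 3, as high in Nts, was not among the arrays that stood apart. In the order of means 5 of the 14 pairs of neighbours did not overlap, with day 3 LV at the top and E7.5 at the bottom.

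**Figure D1:**
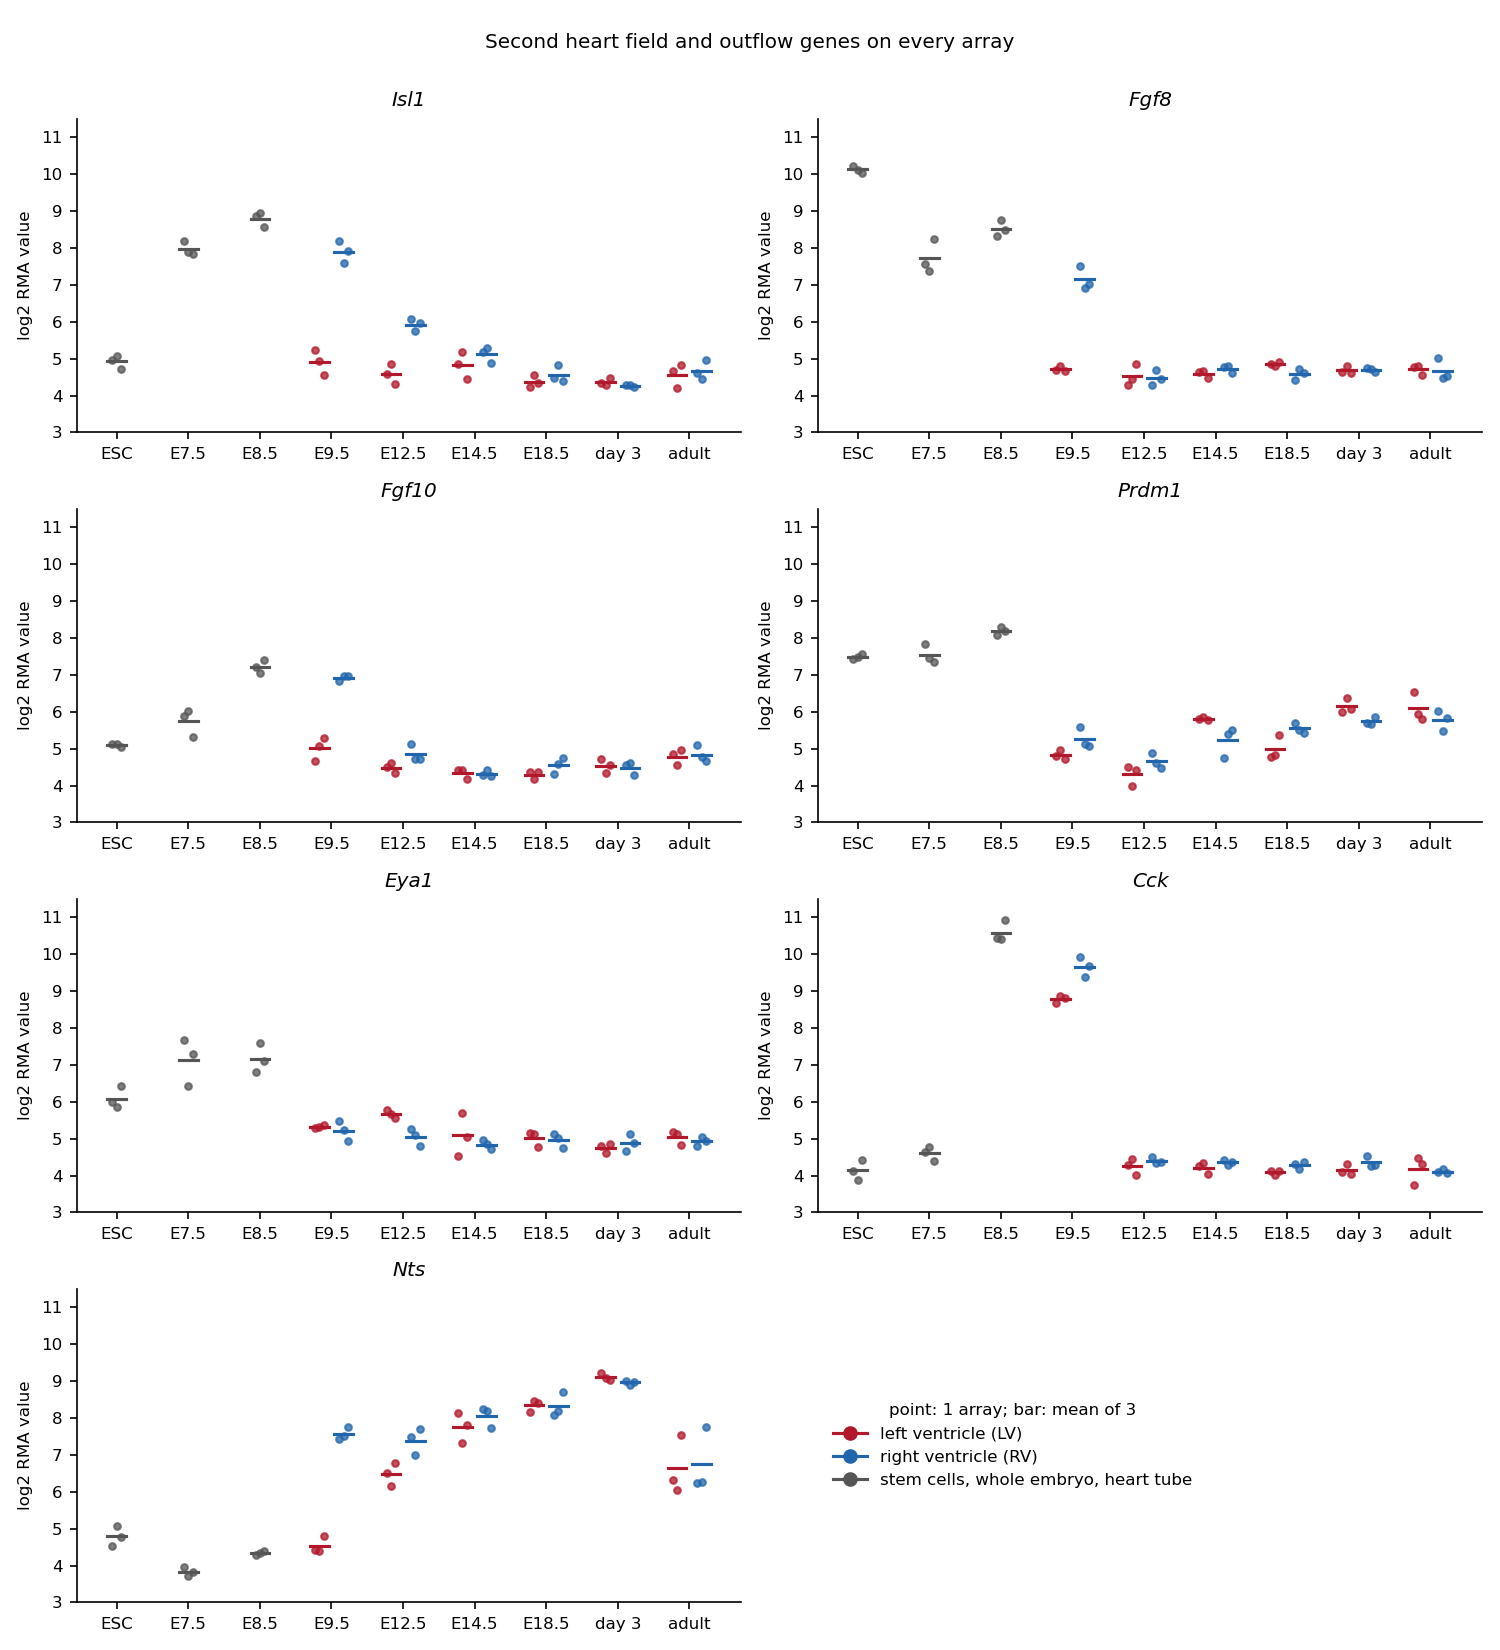
Log2 RMA values (vertical axis) of the 7 genes on all 45 arrays by stage (horizontal axis), with left ventricles to the left of right ventricles, points for arrays and bars for the mean of 3. Cck lies between 8.67 and 10.92 at E8.5 and E9.5 and at most at 4.78 elsewhere. Left and right arrays of E9.5 overlap only for Eya1, and the share of all genes without overlap was not counted.

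Steps between neighbouring stages were tested with limma after left and right ventricles of the same number were averaged, with Benjamini-Hochberg adjustment over all genes and a threshold of 0.05 (a gene past it is called). At E7.5 against stem cells, 6 of the 7 genes were called, where 49.4% of all genes were. Isl1 rose by 3.05 ± 0.16 (SE, adjusted p = 1.07e-13), Eya1 by 1.05 ± 0.23, Fgf10 by 0.64 ± 0.14 and Cck by 0.46 ± 0.13. Fgf8 fell by 2.41 ± 0.15 (adjusted p = 5.11e-12) and Nts fell by 0.96 ± 0.25. Cck overlapped between the groups, and its call was lost when only these groups were fitted (adjusted p = 0.0542) or without ESC replicate 2 (adjusted p = 0.0535). Prdm1 differed by 0.04 (adjusted p = 0.828).

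At E8.5 against E7.5, Isl1, Fgf8, Fgf10, Prdm1 and Cck rose, which made 5 of 7 called where 48.6% of all genes were. Cck was 62.9-fold higher in heart tubes than in whole embryos (5.97 ± 0.13 log2, SE, adjusted p = 8.83e-21). Fgf10 was 2.78-fold higher, Isl1 1.76-fold, Fgf8 1.75-fold and Prdm1 1.56-fold, with no overlap between the groups. Eya1 (0.04, adjusted p = 0.914) and Nts (0.51, adjusted p = 0.101) were not called, although the Nts arrays did not overlap either. The share of all genes without overlap was not counted at this step. The step compares dissected heart tubes with whole embryos, so the tissue sampled and the stage cannot be told apart. The mean of 10 pharyngeal and foregut endoderm markers was 6.99 to 7.92 in heart tubes and 8.78 to 9.06 in whole embryos.

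At E9.5 against E8.5 all 7 genes changed, where 26.9% of all genes were called. Prdm1 fell by 3.14 ± 0.14 log2 (SE, adjusted p = 1.23e-13), an 8.84-fold drop, Fgf8 fell by 2.60 ± 0.15, Isl1 fell by 2.39 ± 0.16, Eya1 fell by 1.90 ± 0.23, Cck fell by 1.36 ± 0.13 and Fgf10 fell by 1.25 ± 0.14. Nts rose by 1.71 ± 0.25 (adjusted p = 1.91e-05). Endoderm markers fell at the same step: 9 of the 10 were called lower and their mean was 4.33 to 5.25 on the E9.5 arrays. The mean of the decidua and trophoblast markers was 5.39 to 6.35 in heart tubes. At E9.5 it was 3.77 to 5.93 in left and 3.78 to 6.02 in right ventricles, with replicate 1 highest on both sides. The part of these tissues in the falls was not tested. The median difference of the 7 genes was -1.90, against -0.02 over all genes.

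The averages hid a split between the ventricles. Taken against the E8.5 heart tube on its own, the left ventricle of E9.5 was lower by 3.89 ± 0.19 (SE) for Isl1 and the right ventricle by 0.89 ± 0.16, that is 14.9-fold and 1.86-fold. Fgf8 was 14.1-fold lower in left and 2.61-fold lower in right ventricles. Fgf10 was 4.61-fold lower in left ventricles (adjusted p = 6.1e-10), while right ventricles were not called (1.23-fold lower, adjusted p = 0.208). Nts was not called in left ventricles (0.20 ± 0.26, adjusted p = 0.691) and was 9.3-fold higher in right ventricles (adjusted p = 8.36e-09). Prdm1 was 10.3-fold lower in left and 7.63-fold lower in right ventricles, and Eya1 3.61-fold and 3.87-fold, so these regulators fell on both sides. Cck was 3.47-fold lower in left and 1.90-fold lower in right ventricles. Both ventricles were set against the same heart tubes, and the test of left against right follows.

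**Figure D2:**
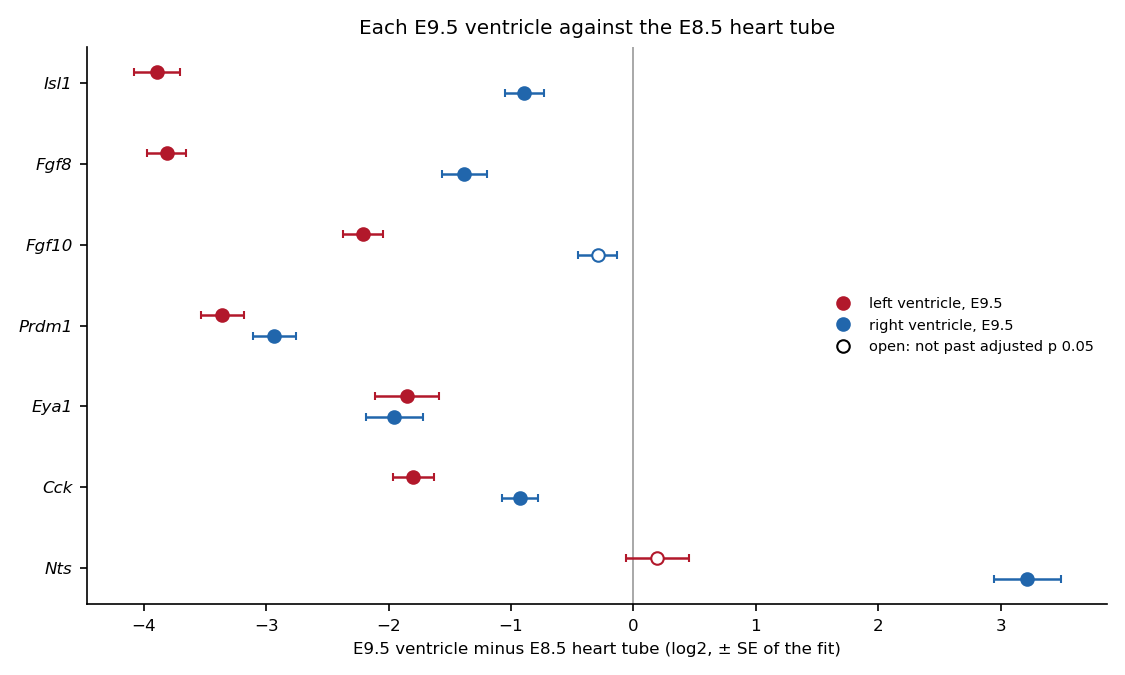
Change of each gene (rows) in the E9.5 left (red, upper) and right (blue, lower) ventricle against the E8.5 heart tube, in log2 units with the SE of the fit as bars, filled where the adjusted p was under 0.05. Left ventricles lie 1.80 to 3.89 below the heart tube for every gene but Nts, while right ventricles lie 0.29 to 2.93 below it and 3.22 above it for Nts.

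At E9.5 the left ventricle was lower than the right for 5 of the 7 genes, where 3.5% of all genes were called in either direction. Isl1 was 8.0-fold lower in left ventricles (-3.00 ± 0.18 log2, SE, adjusted p = 4.5e-14) and Nts 8.12-fold lower (-3.02 ± 0.29, adjusted p = 2.8e-09). Fgf8 was 5.39-fold lower (-2.43 ± 0.17, adjusted p = 6.46e-13), Fgf10 3.77-fold lower (-1.91 ± 0.16, adjusted p = 5.31e-11) and Cck 1.83-fold lower (-0.87 ± 0.15, adjusted p = 0.000244). In each of the 5 the left and right arrays did not overlap. The same held for Prdm1, and the share of all genes without overlap was not counted. Prdm1 (-0.43 ± 0.19, adjusted p = 0.304) and Eya1 (0.10 ± 0.23, adjusted p = 0.933) were not called.

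Of the tissue markers at E9.5, the 7 for ventricular muscle and the 5 for outflow smooth muscle gave 0 calls in limma, with 1 (Nppa, a natriuretic peptide gene) and 0 at an unadjusted p under 0.05. Of 10 endoderm markers, Spink1 was higher in left ventricles, and their mean was 4.42 to 4.53 in left ventricles, against 4.33 to 5.25 in right ventricles, the highest being replicate 1. Of 7 neural crest and ganglion markers, Stmn2, a neuronal gene, was lower in left ventricles (5.29 ± 0.13 against 7.68 ± 0.09, SD, n = 3 each). Meox1, 1 of 7 trunk mesoderm markers, was lower too (-0.96), and Tbx3, 1 of 3 sinus node markers (1.06), and Nr2f2, 1 of 5 atrial markers (0.70), were higher. Without the replicate 1 arrays of both sides, which stood apart in decidual markers, the 5 calls held: Isl1 -3.02, Nts -3.03, Fgf8 -2.24, Fgf10 -1.78 and Cck -0.68 (adjusted p = 0.0416, the weakest of them). The part of the other tissues in the 5 differences was not tested.

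At E12.5 against E9.5, 6 of 7 genes were called, where 38.1% of all genes were. Cck fell by 4.90 ± 0.13 log2 (SE, adjusted p = 9.96e-18), a 29.9-fold drop shared by left (-4.54) and right ventricles (-5.26). Fgf8 fell by 1.43 ± 0.15, Fgf10 fell by 1.3 ± 0.14, Isl1 fell by 1.15 ± 0.16 and Prdm1 fell by 0.56 ± 0.14, and Nts rose by 0.88 ± 0.25 (adjusted p = 0.0074). The ventricles differed in this step. Isl1 differed by -0.31 in left ventricles (adjusted p = 0.233) and fell by 1.98 in right ventricles, and Fgf8 differed by -0.19 in left ventricles (adjusted p = 0.414) and fell by 2.67 in right ventricles. Nts rose by 1.94 in left ventricles (adjusted p = 3.7e-06), against -0.17 in right ventricles (adjusted p = 0.693). Leaving out any 1 of the 3 left arrays of E9.5, which leaves its right partner alone in the average, took the Nts step to between 0.37 and 0.39 and ended its call, and without E9.5 RV replicate 3 the Isl1 step was -0.58 and not called (adjusted p = 0.157). Eya1 was not called (0.09, adjusted p = 0.797).

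The difference between left and right at E12.5 was smaller than at E9.5 for Fgf8, Nts, Isl1 and Fgf10, 4 of 7 genes in a direct test that called 0.704% of all genes. The change of left minus right was 2.47 ± 0.23 for Fgf8 (SE, adjusted p = 1.09e-08), 2.11 ± 0.41 for Nts (adjusted p = 0.0043), 1.66 ± 0.26 for Isl1 (adjusted p = 0.000203) and 1.54 ± 0.22 for Fgf10 (adjusted p = 5.69e-05). Cck changed by 0.72 ± 0.22 and was not called (adjusted p = 0.157), nor were Eya1 (0.51, adjusted p = 0.925) and Prdm1 (0.07, adjusted p = 1).

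Isl1 was the 1 gene of the 7 still called at E12.5, where 1.26% of all genes were, and was 2.52-fold lower in left ventricles (-1.34 ± 0.18, SE, adjusted p = 1.12e-05). Nts was lower in all 3 left arrays than in any right array (-0.91 ± 0.29) and missed the threshold (adjusted p = 0.164). Same-numbered ventricles of E12.5 deviated together, and with the replicate number as a block in limma Nts was called (adjusted p = 0.00101). Those of E18.5 deviated in opposite directions by a similar size, so such correlations cannot show whether ventricles were paired. Eya1 stood the other way, at 5.77, 5.67 and 5.55 in left ventricles, against 5.27, 5.11 and 4.79 in right ventricles, without being called (0.61 ± 0.23, adjusted p = 0.36). The brighter of its other probe sets gave 0.09 ± 0.16 (adjusted p = 0.999 in limma). Fgf8 (0.04), Fgf10 (-0.37), Prdm1 (-0.35) and Cck (-0.15) were not called. Markers that were lower in left ventricles at this stage were Eln (-3.31) and Tagln (-0.72) of 5 outflow smooth muscle genes, Shox2 (-1.38) of 3 sinus node genes, Stmn2 (-1.87) of 7 neural genes and Meox1 (-1.51) of 7 trunk mesoderm genes. The mean of the outflow smooth muscle list was 9.11 to 9.18 in left ventricles, against 9.99 to 10.13 in right ventricles, and the part of such tissue in the Isl1 difference was not tested.

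At E14.5 Prdm1 was the gene called between the ventricles, where 8.51% of all genes were. It had 5.81, 5.87 and 5.78 in left ventricles, against 4.76, 5.40 and 5.52 in right ventricles (0.59 ± 0.19 log2, SE, adjusted p = 0.0424). The call was lost without each of the 3 left arrays or without right replicate 1 or 2 (adjusted p 0.0614 to 0.335), and the difference was 0.36 without right replicate 1. Without right replicate 3 the adjusted p was 0.0238. Of 8 lymphoid and plasma cell markers limma called 0 here, with 1 (Cd3g) at an unadjusted p under 0.05 and a mean of 4.83 to 5.67 in left ventricles, against 4.84 to 4.99 in right ventricles. Left replicate 2 was the highest of them, as it was for skeletal muscle (6.05) and endoderm markers (5.27), and its part was not tested.

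From E18.5 on no gene of the 7 was called between left and right ventricles in limma. At E18.5, where 4.95% of all genes were called, 1 of the 7 had an unadjusted p under 0.05 in limma, Prdm1, and it was lower in left ventricles (-0.56 ± 0.19, SE, adjusted p = 0.0736). Its values were 4.76, 4.83 and 5.37 in left ventricles, against 5.71, 5.51 and 5.43 in right ventricles, without overlap. Without E18.5 LV replicate 3 it was called (-0.75, adjusted p = 0.0094). At day 3, where 0.0055% were called, Prdm1 was again the 1 gene under 0.05 in limma and was higher in left ventricles (0.40 ± 0.19, adjusted p = 1). In adults, where 0.0165% were called, 0 of the 7 were under 0.05, and their differences ran from -0.11 for Isl1 to 0.32 for Prdm1.

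Averaged over the 6 ventricle stages, the left ventricle was lower for Isl1 (-0.80 ± 0.08, SE), Nts (-0.70 ± 0.12), Fgf10 (-0.42 ± 0.06), Fgf8 (-0.37 ± 0.07) and Cck (-0.25 ± 0.06), 5 of 7 genes where 2.97% of all genes were called. Among these 5 genes the differences after E12.5 lay between -0.30 and 0.28 on the probe sets used. Without the arrays that stood apart in other markers, Cck missed the threshold (-0.22, adjusted p = 0.0607). An F-test of whether left minus right depended on the stage called Isl1, Fgf8, Fgf10, Nts and Prdm1, 5 of 7 genes where 5.85% of all genes were called. Cck (adjusted p = 0.0523) and Eya1 (adjusted p = 0.595) missed the threshold, which Cck passed in some other settings (adjusted p = 0.033 with only the groups compared and 0.00715 without adult LV replicate 1).

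**Figure D3:**
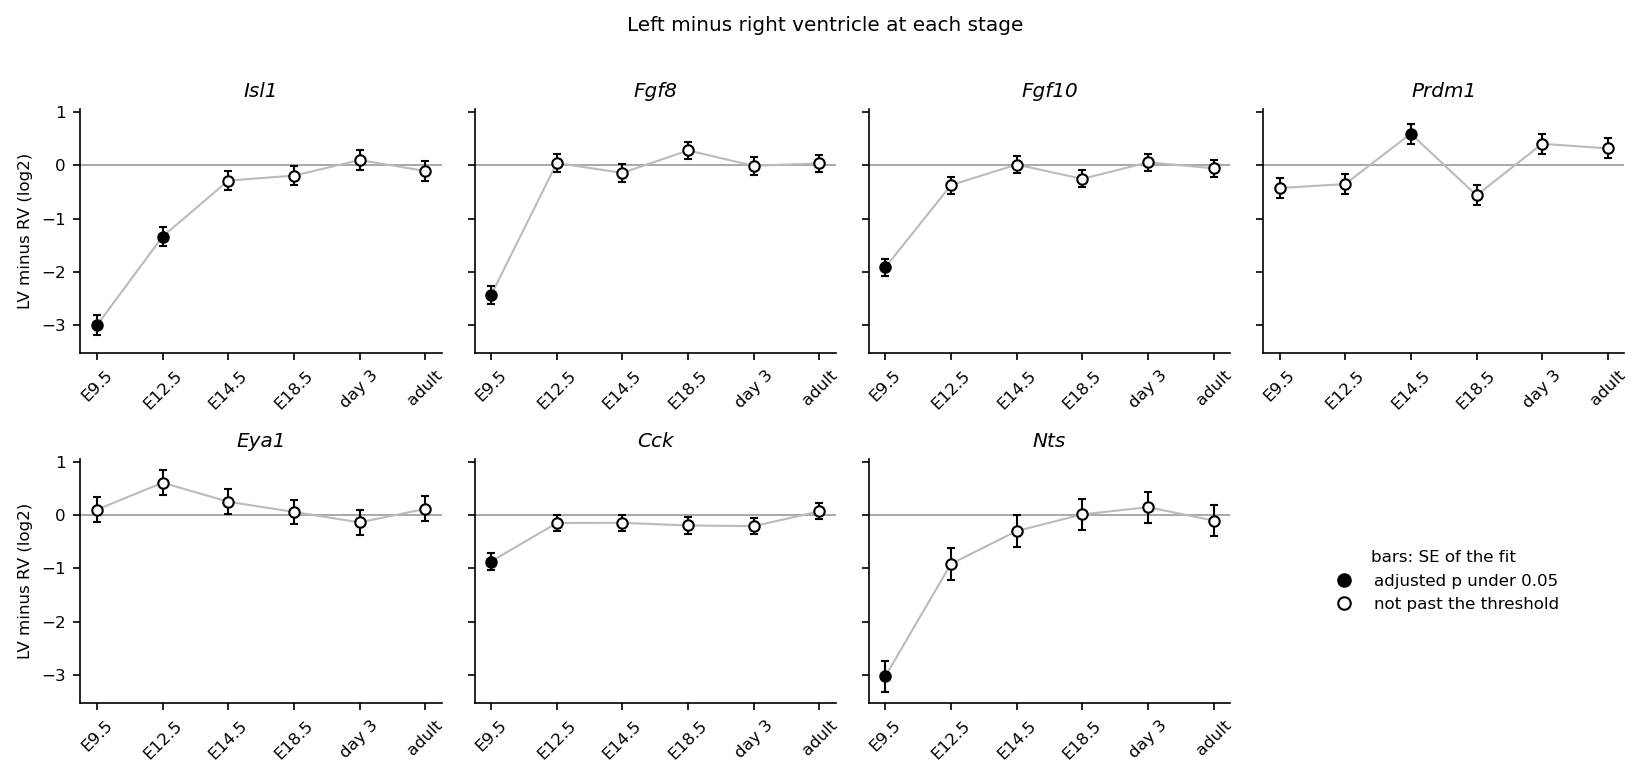
Left minus right ventricle (vertical axis, log2, SE of the fit as bars) at the 6 ventricle stages (horizontal axis) for each gene, filled where the adjusted p was under 0.05. On the probe sets used, Isl1, Fgf8, Fgf10 and Nts start between -3.02 and -1.91 at E9.5 and are within 0.30 of 0 from E14.5. Prdm1 changes sign between stages.

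Later steps called few of the 7 in the averaged ventricles. At E14.5 against E12.5, where 13.3% of all genes were called, Prdm1 rose by 1.04 ± 0.14 (SE, adjusted p = 2.12e-05) and Nts rose by 0.97 ± 0.25 (adjusted p = 0.0119). The Nts call was lost without E12.5 LV replicate 3 (adjusted p = 0.0543) or E14.5 RV replicate 2 (adjusted p = 0.0532). In right ventricles alone Isl1 (-0.80, adjusted p = 0.00135) and Fgf10 (-0.54, adjusted p = 0.0214) were called lower. Neither was called in left ventricles alone (0.25 and -0.15). Nts was called in left ventricles alone (1.28, adjusted p = 0.00275) but not in right ventricles alone (0.665, adjusted p = 0.0949). At E18.5 against E14.5, where 30.6% were called, Isl1 fell by 0.51 ± 0.16 (adjusted p = 0.0166). This call was lost when arrays were scaled to housekeeping genes (adjusted p = 0.0786), a scaling that shifted the typical gene by 0.14 here. It was also lost without E14.5 RV replicate 3 (adjusted p = 0.0597). Prdm1 was called lower in left ventricles alone (-0.83, adjusted p = 0.000783) but not in right ventricles alone (0.32, adjusted p = 0.208). Differences between sides were not tested for these steps.

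At day 3 against E18.5, where 20.2% of all genes were called, Prdm1 rose by 0.68 ± 0.14 (SE, adjusted p = 0.00118), and it was called in left ventricles alone (1.16, adjusted p = 6.89e-05) but not in right ventricles alone (0.19, adjusted p = 0.521), a difference between sides that was not tested for this step. Nts was 0.70 ± 0.25 higher and missed the threshold (adjusted p = 0.0533), which it passed in several other settings (adjusted p = 0.0411 with the replicate block). Hearts of day 3 were single and pulverised and those of E18.5 pooled, and this handling and the stage cannot be told apart. In adults against day 3, where 48.8% of all genes were called, Nts was the gene called: it fell by 2.34 ± 0.25 (adjusted p = 4.02e-08), a 5.07-fold drop seen in left (-2.47) and right ventricles (-2.22). Under housekeeping scaling the median gene lay 0.33 higher and Nts was still called at -2.02. Prdm1 differed by 0.32 with that scaling, where it was just called (adjusted p = 0.0499), and by -0.01 without it. Isl1 (0.63, adjusted p = 0.00142), Fgf10 (0.62, adjusted p = 0.000735) and Eya1 (0.49, adjusted p = 0.047) were also called higher with that scaling. Unscaled, Fgf10 missed the threshold (0.30, adjusted p = 0.0821), which it passed in some other settings (adjusted p = 0.0231 with 15 groups without averaging).

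The other genes of these pathways were read from 8 lists drawn from textbook roles, with 74 of 81 listed symbols matched. In the comparison of left with right ventricles at E9.5, 10 of the 74 were lower in left ventricles and 2 higher (16.2% called, against 3.5% of all genes), and their median difference was -0.08, against 0.02 over all genes. At E12.5 7 were lower and 1 higher (10.8%, against 1.26% of all genes). At E14.5 the split was 4 lower and 9 higher (17.6%, against 8.51%), with a median of 0.07, and 4 of 8 septation guidance genes were higher in left ventricles, among them Plxna2 (0.97 ± 0.16, SE, adjusted p = 0.000246) and Nrp2 (0.57 ± 0.17, adjusted p = 0.0274). At E18.5 3 were lower and none higher (4.05%, against 4.95%). At E9.5 against E8.5 43 were lower and 4 higher (63.5%, against 26.9%), with a median of -0.45, against -0.02 over all genes.

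Fgf8 and Fgf10 act through FGF receptors, whose signal induces its own inhibitors. Of 6 receptors and adaptors, 4 fell between the E8.5 heart tube and E9.5, where 26.9% of all genes were called, with Fgfr2, a receptor for Fgf10, at 7.27 in E9.5 ventricles, against 8.1 in heart tubes (adjusted p = 6.58e-06), and Fgfr1 at 8.39, against 8.90 (adjusted p = 0.00699). Fgfr3 was the 1 of the 6 that differed at E9.5, with 6.79 ± 0.18 in left ventricles, against 7.59 ± 0.01 in right ventricles (SD, n = 3 each, adjusted p = 0.00012). Of 10 targets and feedback inhibitors, 7 fell at E9.5 against E8.5 and none rose. Il17rd, which restrains FGF signalling, fell by 2.14 ± 0.14 (SE, adjusted p = 7.03e-11), Etv5, a transcription factor induced by FGF, fell by 0.85 ± 0.15 and the phosphatase Dusp6, another induced inhibitor, fell by 0.54 ± 0.09. Between the ventricles of E9.5 only Il17rd of these 10 was called (-0.86 ± 0.18, adjusted p = 0.0025), and Spry1, Spry2, Dusp6, Etv4 and Etv5 were not. Of 6 other FGF ligands, Fgf9, an epicardial and endocardial ligand, was called at E9.5 and was higher in left ventricles (6.91 ± 0.06 against 6.41 ± 0.13, SD, n = 3 each, adjusted p = 0.0383).

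Of 15 transcription factors of the second heart field, 9 fell and none rose at E9.5 against E8.5, the step that called 26.9% of all genes, among them Tbx1, a T-box factor of the pharyngeal region (-2.79 ± 0.17, SE, adjusted p = 2.39e-11). At E9.5 Foxc1 was higher in left ventricles (0.87 ± 0.18, adjusted p = 0.00195) and Hand2, a factor of the right ventricle and outflow tract, was lower (-0.47 ± 0.13, adjusted p = 0.0292), and Tbx1 was not called. Of 8 other Eya genes and sine oculis homeobox partners, 6 fell at E9.5 against E8.5, including Six4 (-1.19 ± 0.18), Eya4 (-0.82 ± 0.13) and Six2 (-0.78 ± 0.15). Eya4 was lower in left ventricles at E12.5 (4.99 ± 0.15 against 6.17 ± 0.14, SD, n = 3 each, adjusted p = 9.07e-05), where Eya1 was not called.

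Of the 74 genes, Bmp4 differed most between the ventricles of E9.5 and Sema3c between those of E12.5. Of 13 hedgehog, BMP and Wnt genes 5 were called at E9.5, all lower in left ventricles. Bmp4, a ligand made in the outflow tract, had 7.82 ± 0.07 in left ventricles, against 10.88 ± 0.07 in right ventricles (SD, n = 3 each), an 8.31-fold difference (adjusted p = 4.72e-18). Wnt2 was 2.69-fold and Wnt11 2.39-fold lower in left ventricles. Of 8 septation guidance genes, Nrp2 was 2.63-fold and Sema3c 2.00-fold lower at E9.5, both encoding a receptor or ligand of the semaphorin system. At E12.5 2 of the 13 signals were called, both lower in left ventricles: Bmp2, another BMP ligand, 2.61-fold (adjusted p = 0.000218) and Bmp4 1.91-fold (adjusted p = 3.14e-05). Sema3c was 2.84-fold lower there (adjusted p = 3.99e-07).

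Of 8 peptide receptors and processing genes, limma called 0 between the ventricles of E9.5, with 2 at an unadjusted p under 0.05 (Cpe and Pam, which process peptide precursors), while Cck and Nts were called. Cckar, a cholecystokinin receptor, was lower in left ventricles at E12.5 (3.24 ± 0.11 against 4.26 ± 0.10, SD, n = 3 each, adjusted p = 3.43e-06) and at E14.5 (3.51 against 4.33, adjusted p = 2e-04), stages at which Cck was at its floor. These Cckar means all lay under the lowest array median (5.35), and a low value cannot be told from absence. Ntsr2, a neurotensin receptor, rose by 1.36 ± 0.10 in adults against day 3 (SE, adjusted p = 7.15e-11), the step at which Nts fell. Sort1, a sorting receptor that binds neurotensin, rose by 1.04 ± 0.08 at E8.5 against E7.5 (adjusted p = 2.31e-10) and had no call at day 3 or in adults. Cckbr and Ntsr1 were never called between ventricles.

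**Figure D4:**
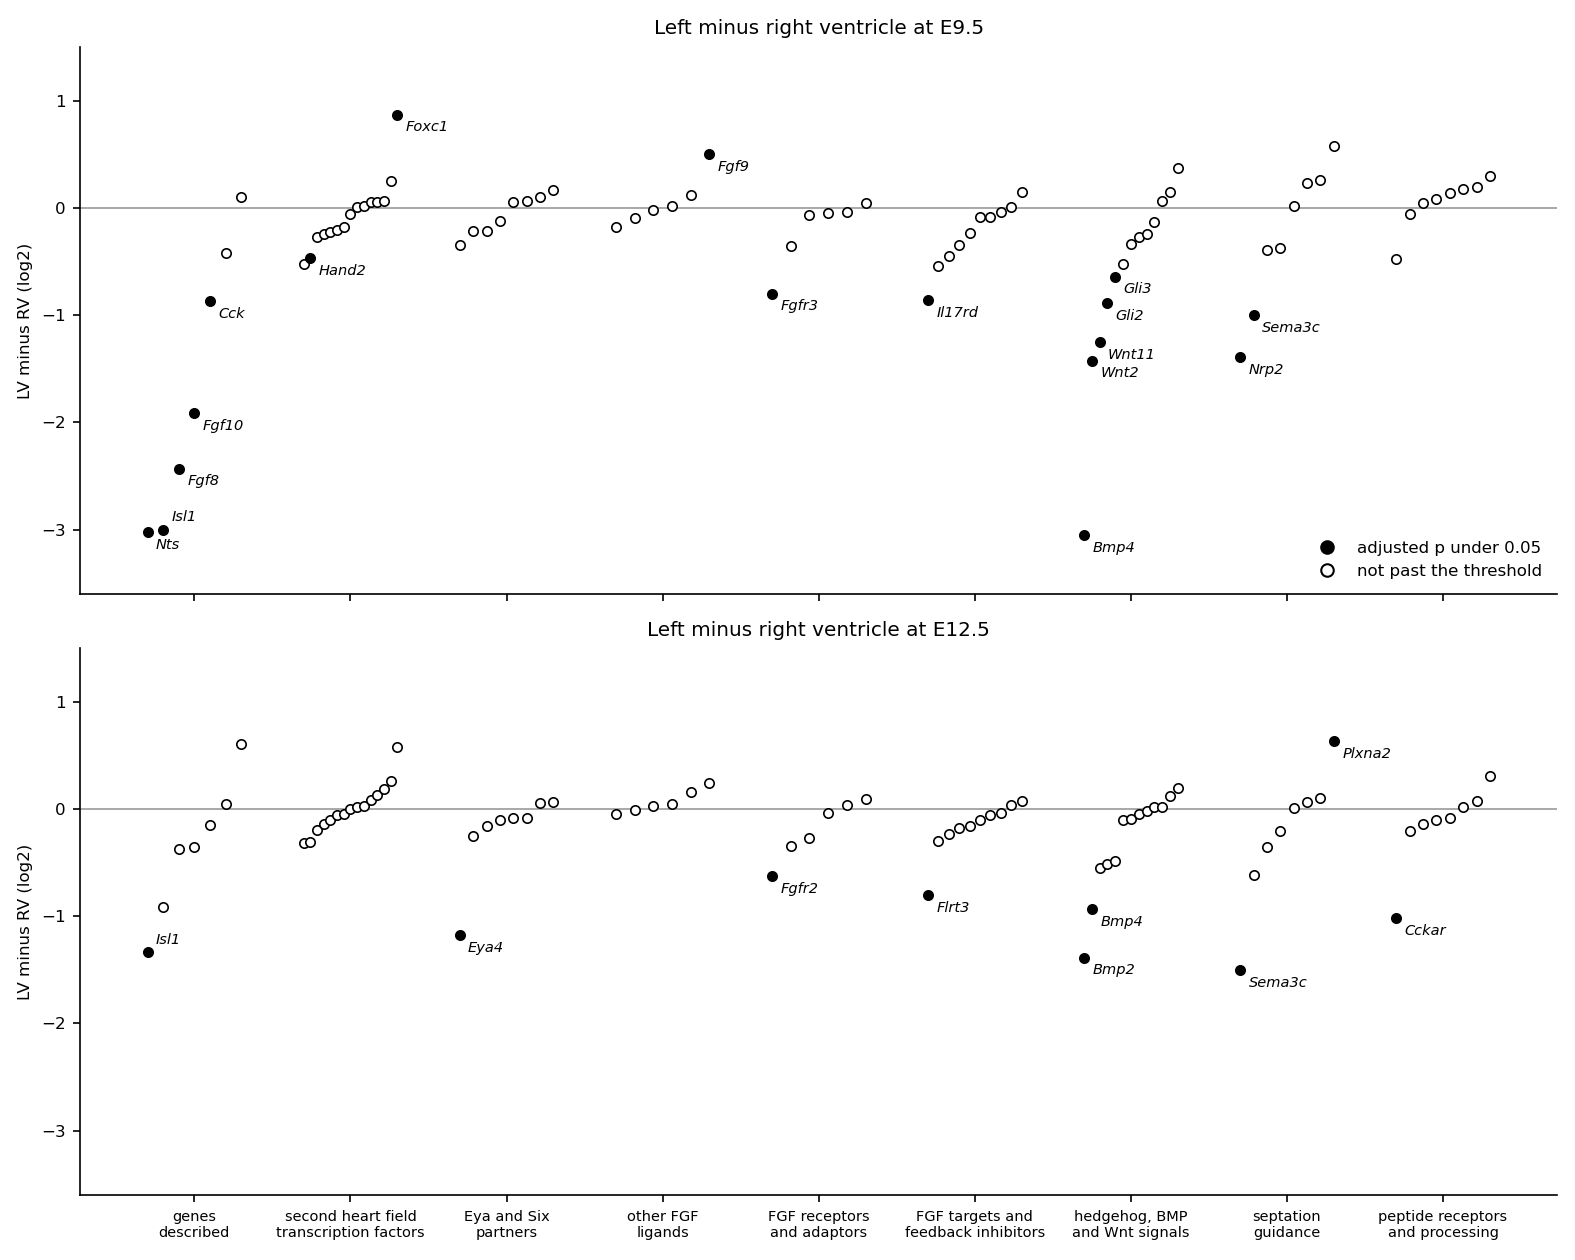
Left minus right ventricle (vertical axis, log2) at E9.5 (upper) and E12.5 (lower) for the 7 genes and the members of 8 pathway lists (horizontal axis), filled and named where the adjusted p was under 0.05. At E9.5 Bmp4 lies at -3.05 beside Nts at -3.02 and Isl1 at -3.00, and at E12.5 Sema3c at -1.50 lies lowest, followed by Bmp2 at -1.39 and Isl1 at -1.34.

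Courses were compared as Pearson correlations of the 15 group means among 5242 genes with a range of at least 2, as a description, since all genes share the same arrays. The nearest to Isl1 were Gata3 (r = 0.935), Dkk1 (0.929), Crabp2 (0.924) and Fgf10 (0.917), and those nearest to Fgf10 were Amph (0.923), Nptx2 (0.921) and Isl1. Fgf8 lay nearest to Tdgf1 (0.968), a co-receptor of Nodal, with Il17rd (0.94) and Etv5 (0.931) among its 5 nearest. Cck lay nearest to Fcmr (0.975) and Wnt2 (0.946), Eya1 to Foxa1 (0.952), an endoderm factor, Prdm1 to Kifc2 (0.903) and Nts to Apold1 (0.915). Among the 7, Isl1 and Fgf10 were closest, followed by Fgf10 and Cck (0.839), and Nts correlated negatively with each of the other 6 (-0.426 to -0.834).

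Isl1 and Eya1 had further probe sets. The other of Isl1 followed the one used (r = 0.984 over the 45 arrays) with a wider range of group means, 6.30 against 4.53. It gave a larger difference between the ventricles of E9.5 (-4.26 ± 0.24, SE, adjusted p = 4.19e-15) and of E12.5 (-2.73 ± 0.24, adjusted p = 1.97e-09). At E14.5 it gave -0.74 ± 0.24, against -0.29 on the one used, and was not called (adjusted p = 0.0575). Both others of Eya1 were nearly flat, with ranges of 0.53 and 0.41 against 2.42 and correlations of 0.401 and 0.49. The brighter of them gave E9.5 against E8.5 as -0.53 ± 0.12 (adjusted p = 0.00263) and E12.5 against E9.5 as 0.46 (adjusted p = 0.00511), so the size of the Eya1 fall rests on the probe set used.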

How the data were processed

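Gene expression was measured in 45 samples of 15 groups. As deposited, each probe set has a log2 value that the authors normalized by RMA, per the submitters' processing notes. The RMA version is not given in the sources used here. Of 45101 probe sets, 34945 had 1 gene symbol in the platform annotation, 932 had several and 9160 had none, which left 18193 genes after 64 control probe sets were set aside. Sample groups came from the titles in the labels, and 0 columns of sample values were left unused.

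Tests were run with limma 3.58.1 in R 4.3.3 (lmFit and eBayes, two-sided, Benjamini-Hochberg over all genes, threshold 0.05). Stage steps used 9 stages after same-numbered ventricles were averaged. Left minus right was fitted on all 15 groups. The number of arrays limits the precision, and arrays give no counts. The fits were also run on simulated data with known changes and independent noise on each array. Such data hold no shared deviations of same-numbered ventricles and no compression of low values, so they cannot test these. Promoters and motifs were read with Python 3.11.15.

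Same-numbered ventricles deviated together at E12.5 (r = 0.271, 0.321 and 0.369 over all genes), a hint from the data that the labels do not state. At each other stage at least 1 of 3 pairs was not over 0.1. At E18.5 all 3 were negative by a similar size (r = -0.236, -0.155 and -0.318), so these correlations cannot settle whether ventricles were paired.

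The 7 genes, the pathway and marker lists, and the tests were chosen with earlier results of these data known. The 7 genes were named whatever their values. From each pathway list, up to 4 called genes with the largest difference were named, with the receptors, partners and feedback targets of the 7 and, among genes whose group means spanned at least 2 units, the nearest in course (up to 5 a gene, passing over clone names and olfactory receptors). Sort1, Cpe and Pam were named after their values were seen. Alternatives covered the fit, filter, probe set, scaling, thresholds, block, single ventricles and each array left out. Listed symbols that matched no probe set of a single symbol were not analysed here.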

Additional observations from a re-analysis of the deposited data

Results flagged for a closer look

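For 5 of the 7 genes the difference between left and right ventricles depended on the stage in limma's F-test over the 6 ventricle stages. The adjusted p was 3.8e-10 for Isl1, 1e-09 for Fgf8, 4.31e-07 for Fgf10, 9.08e-06 for Nts and 0.00703 for Prdm1. Isl1, Fgf8, Fgf10 and Nts were lower in left ventricles by 1.91 to 3.02 log2 units at E9.5. From E14.5 on their differences were between -0.30 and 0.28 on the probe sets used. The other probe set of Isl1 gave -0.74 at E14.5 and was not called (adjusted p = 0.0575 in limma). Prdm1 had a positive difference at E14.5 (0.59, called, but 0.36 and not called without E14.5 RV replicate 1) and a negative one at E18.5 (-0.56, not called).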

How the results depend on the processing

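Only 3 arrays a group, dim signals and the compression of low values by RMA limit these results, and a difference that missed the threshold is not shown to be absent. The 5 calls between the ventricles of E9.5 were kept under each alternative run there except those asking for a 2-fold difference, where Cck was under it. Over all comparisons of the 7 genes, trended and robust eBayes kept the call of all 119 values, and leaving out each array kept 1378 of 1407, with none reversed.

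Reversed values were Nts at E12.5 against E9.5 in right ventricles only (-0.17, against 0.88) and Prdm1 in adults against day 3 with housekeeping scaling (0.32, against -0.01). With the added demand of a 2-fold difference, 3 in place of 6 genes were called at E7.5 against ESC, 2 in place of 5 at E8.5 against E7.5, 1 in place of 2 at E14.5 against E12.5, 0 in place of 1 at E18.5 against E14.5, at day 3 against E18.5 and between the ventricles of E14.5, and 0 in place of 5 for the mean over stages. At an adjusted p under 0.01 the counts were 1 at E14.5 against E12.5, 0 at E18.5 against E14.5 and 0 between the ventricles of E14.5. With only the groups compared in the fit, 2 genes were called at each of the 3 last steps, 3 between the ventricles of E12.5 and 0 between those of E14.5. With housekeeping scaling the counts were 0 at E18.5 against E14.5, 2 at day 3 against E18.5, 5 in adults against day 3 and 0 between the ventricles of E14.5. This scaling also moved the share of higher genes among all calls, to 80.4% in adults against day 3 and 69.2% at E18.5 against E14.5, against 45.8% and 38.7% unscaled, and to between 55.4% and 72.5% at the other steps, against 42.1% to 54.1%. At day 3 against E18.5 the count was 2 with genes above the median only, left ventricles only, 15 groups without averaging, the replicate block or without the arrays that stood apart, and 0 with right ventricles only. In adults against day 3 it was 2 with right ventricles only, 15 groups or without those arrays. The replicate block gave 2 calls between the ventricles of E12.5 (Isl1 and Nts) and 0 between those of E14.5 (Prdm1, adjusted p = 0.0528), and changed no other call of the 7 genes beyond Nts at day 3 (0.70, adjusted p = 0.0411). Leaving out 1 array gave 1 to 2 calls at E14.5 against E12.5, 0 to 2 at E18.5 against E14.5, 1 to 2 at day 3 and in adults, and 0 to 1 between the ventricles of E14.5 and of E18.5. The cause of these changes was not tested. The leaving out of marked arrays and the second probe set were chosen after seeing the data.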
